A study of Mus musculus with 12 samples.

Results

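The immediate early genes of the AP-1, Egr and Myc families were followed in C2C12 cells: Fos, Fosl1, Fosl2, Jun, Junb, Jund, Egr1, Egr2, Atf3 and Myc. They were chosen as a list of 10 gene symbols, and their probes were found in the array annotation. Of these genes, 9 had a probe, among 19057 genes with a probe in all, and 9 passed the filter on detected signal, among 10847 tested genes. Fosl1 was not analysed here. C2C12, an immortalized line of mouse myoblasts, forms multinucleate myotubes when serum is lowered. Cells were transfected with 100 nM siRNA in growth medium, moved to differentiation medium and collected 18 h or 48 h later. The 6 groups were siBRM, siBRG1 and the scrambled control siSCR at 18 h, and the same 3 siRNAs at 48 h, with 2 Illumina BeadChip arrays in each. BRM (gene Smarca2) and BRG1 (gene Smarca4) are the alternative ATPases of the SWI/SNF chromatin remodelling complexes, and all groups, controls included, carried the transfection reagent and the change of medium.

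Immediate early genes are transcribed within minutes of a growth factor, serum or stress signal, without new protein synthesis, because their promoters are bound beforehand by factors that kinases switch on. Fos and Jun proteins pair through leucine zippers to form AP-1, Egr proteins bind GC-rich sites through zinc fingers, and Myc binds E-boxes with its partner Max. In myoblasts, high Jun, Fos or Myc activity is known to hold back differentiation, and their transcripts are usually low once growth factors have been withdrawn.

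The arrays lay on 3 BeadChips. The 18 h arrays of replicate 1 shared the first, the 48 h arrays of replicate 1 the second and all arrays of replicate 2 the third, so within replicate 1 time and BeadChip cannot be told apart. In every set the siSCR, siBRM and siBRG1 arrays were adjacent in that order, so siRNA and place on the BeadChip cannot be told apart either. Mean array signal ran from 513 to 1644, and 27.3% to 39.4% of the probes were detected, with the lowest values on the first BeadChip. The siRNA targets were lower in their own groups in both replicates: the log2 difference from siSCR was -1.37 and -1.05 at 18 h and -2.46 and -1.43 at 48 h for Smarca4 with siBRG1. For Smarca2 with siBRM it was -0.71 and -1.63 at 18 h and -0.71 and -0.48 at 48 h. Smarca4 was not detected on either siBRG1 array of replicate 1, so its differences there depend on the background setting. Nothing in the labels says that replicates were separate cultures, so the p-values reflect the spread of these arrays alone, which may be technical.

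Promoter sequences are shown for Egr2, Fosl2, Jun and Fos. These are the members with an entry in the sequence table that had an unadjusted limma p under 0.05 against siSCR with the BeadChip as a block. Each line holds the 250 bases before the start site from RefSeq (build GRCm38.p6), 5′ to 3′ on the gene's strand, with matched motifs in capitals. The regions are chr10:67537619-67537868 (plus strand) for Egr2, chr5:32136222-32136471 (plus strand) for Fosl2, chr4:95052223-95052472 (minus strand) for Jun and chr12:85473640-85473889 (plus strand) for Fos.
Egr2: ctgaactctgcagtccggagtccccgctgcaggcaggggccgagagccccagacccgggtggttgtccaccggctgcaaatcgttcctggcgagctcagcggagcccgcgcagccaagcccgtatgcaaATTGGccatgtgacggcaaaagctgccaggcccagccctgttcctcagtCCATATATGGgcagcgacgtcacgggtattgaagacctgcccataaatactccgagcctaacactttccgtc
Fosl2: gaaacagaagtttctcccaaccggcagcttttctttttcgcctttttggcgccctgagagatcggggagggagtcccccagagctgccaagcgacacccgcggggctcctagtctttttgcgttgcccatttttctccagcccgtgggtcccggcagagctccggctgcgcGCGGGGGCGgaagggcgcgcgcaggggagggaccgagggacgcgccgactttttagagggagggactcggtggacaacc
Jun: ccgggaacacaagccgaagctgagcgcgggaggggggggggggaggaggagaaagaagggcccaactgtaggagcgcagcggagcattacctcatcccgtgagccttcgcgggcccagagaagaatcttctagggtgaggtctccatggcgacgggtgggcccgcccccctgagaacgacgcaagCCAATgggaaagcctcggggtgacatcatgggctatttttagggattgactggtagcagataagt
Fos: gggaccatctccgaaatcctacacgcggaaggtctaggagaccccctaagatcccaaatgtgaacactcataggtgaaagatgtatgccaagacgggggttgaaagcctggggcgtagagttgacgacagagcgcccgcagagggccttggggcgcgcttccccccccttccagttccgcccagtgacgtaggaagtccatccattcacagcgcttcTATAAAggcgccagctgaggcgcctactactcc

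The capitals mark a CArG box, the site bound by serum response factor, from 72 to 63 bases before the Egr2 start, and a CCAAT box on the minus strand from 121 to 117 bases before it. In Fosl2 they mark an Egr site (GCGGGGGCG), in Jun a CCAAT box (CCAAT) and in Fos a TATA box (TATAAA) from 33 to 28 bases before the start. Egr2 has 5 start sites in the table. A CArG box was found before 4 of them, and the remaining one had an E-box (CACGTG). Both strands were searched, also for the CRE (TGACGTCA) and the AP-1 site (TGACTCA), which were found in none of these windows. Among all 32841 promoters of the same length, 1.47% held the CArG box, 2.57% the Egr site, 33.9% the CCAAT box, 12.4% the TATA box, 6.02% the E-box, 1.55% the CRE and 4.46% the AP-1 site. The CCAAT box also occurred before Junb, and none of the 7 motifs occurred before Jund or Atf3. The promoters of Egr1, Fosl1 and Myc were not searched, so the motifs cannot be compared over all members. A match describes the letters of the window and not a bound site.

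Values below are normalized log2 intensities of each gene's tested probe, and levels of different probes are not set against each other. A probe counted as detected where its detection p was under 0.05. The tested probes of Fosl2, Jun, Junb, Egr1 and Egr2 were detected on all 12 arrays, that of Fos on 11, Jund on 10, Myc on 7 and Atf3 on 3. A further 4 probes, 2 for Fosl2 and 1 each for Junb and Myc, were detected on no array and were not tested.

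**Figure D1:**
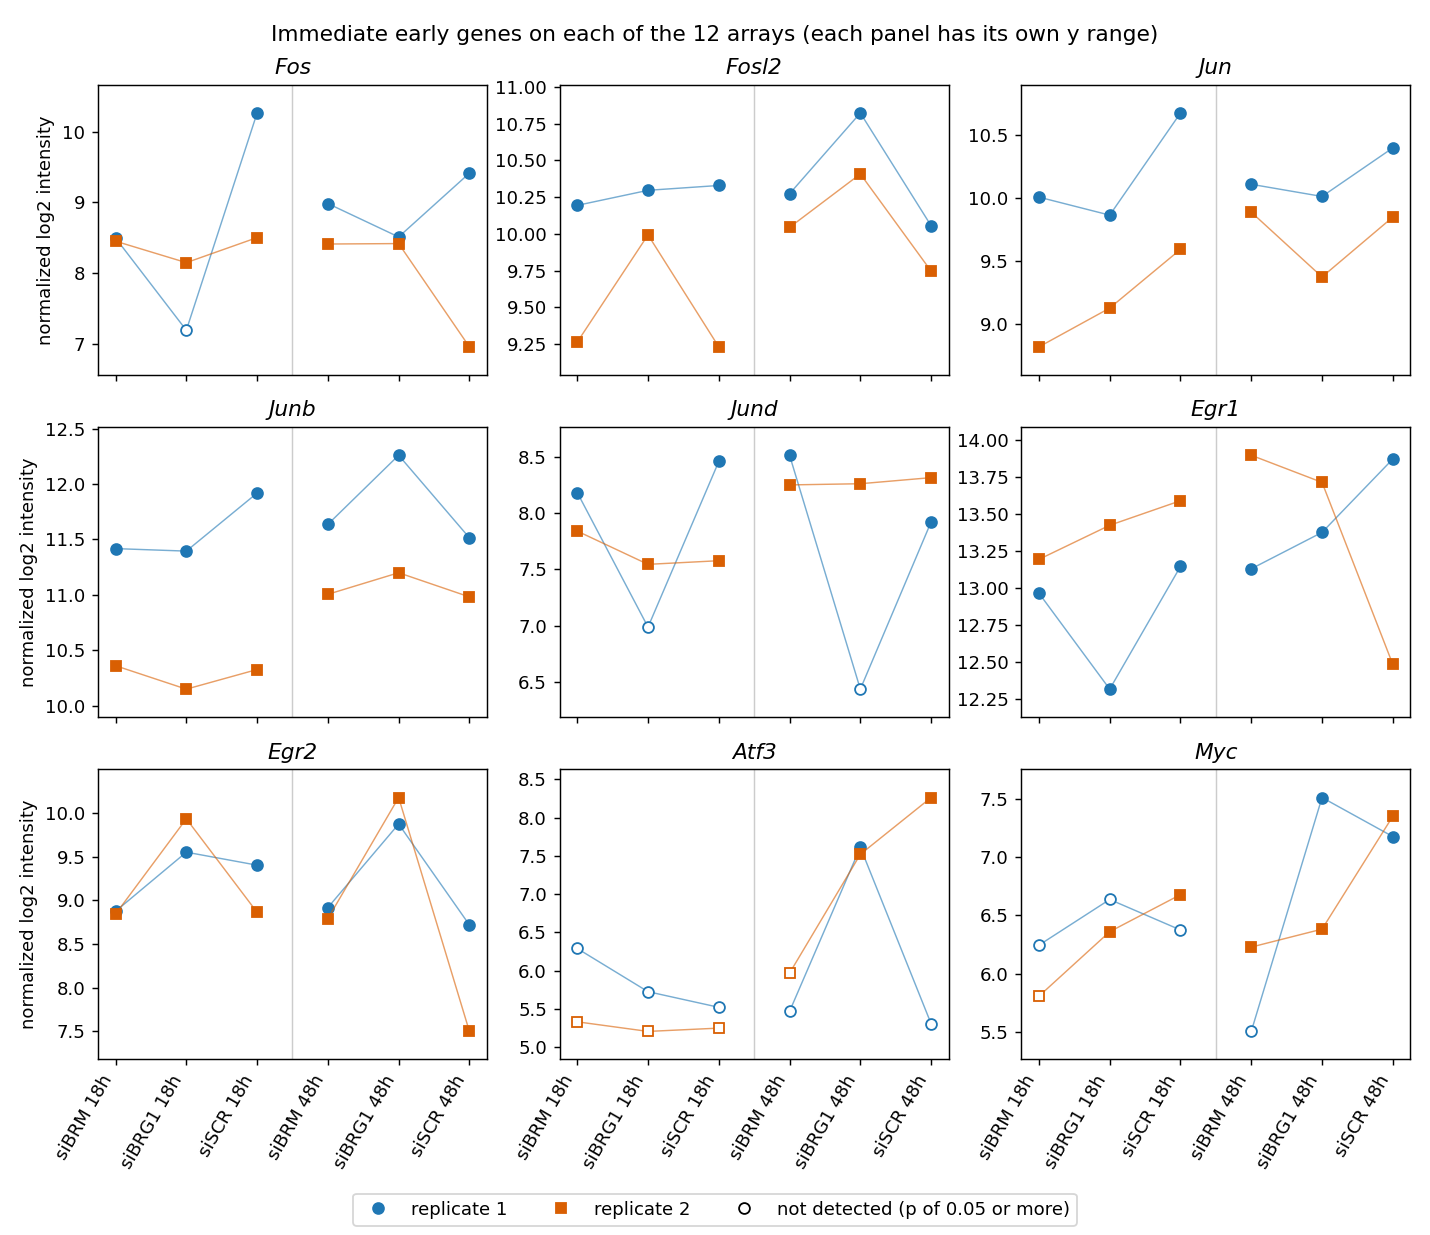
Normalized log2 intensity (y axis, its own range in each panel) of 9 immediate early genes on the 12 arrays, by siRNA and time (x axis); circles are replicate 1, squares replicate 2, open symbols arrays on which the probe was not detected, and lines join the arrays of 1 replicate at 1 time. Egr2 is highest on the siBRG1 array in each of the 4 sets, and Atf3 is detected on 3 arrays, all at 48 h.

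Among the Fos family, Fos encodes the partner of Jun in the classical AP-1 dimer. At 18 h Fos read 7.19 and 8.15 in siBRG1 cells (replicates 1 and 2), 8.50 and 8.45 in siBRM cells, and 10.26 and 8.50 in siSCR cells. At 48 h it read 8.51 and 8.42 in siBRG1 cells, 8.98 and 8.41 in siBRM cells, and 9.41 and 6.96 in siSCR cells. Fos was highest on the siSCR array of replicate 1 at 18 h and was not detected on the siBRG1 array beside it. At 18 h the siBRG1 values lay below those of siSCR. The siBRM values did not overlap those of siSCR either, but the gap was minute. Its higher array read 8.496, beside 8.502 on the siSCR array of replicate 2. At 48 h the siSCR arrays lay on either side of all others. With siBRG1 at 18 h Fos differed from siSCR by -1.71 ± 0.82 (SE; n = 2 arrays in each group, as in every comparison here). Replicate 1 gave at least a 7.50-fold deficit, against the detection limit of the siBRG1 array, and replicate 2 a log2 difference of -0.35. The mean of the Fos difference rests on replicate 1, since it was -1.23 without the siBRG1 array of that replicate and -0.83 without its siSCR array, but -2.19 and -2.59 without those arrays of replicate 2.

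Fosl2 encodes Fra-2, a Fos family member that lacks the strong activation domain of Fos. At 18 h Fosl2 read 10.30 and 9.99 in siBRG1 cells, 10.19 and 9.26 in siBRM cells, and 10.33 and 9.23 in siSCR cells. The 48 h readings were 10.82 and 10.41 in siBRG1 cells, 10.27 and 10.04 in siBRM cells, and 10.06 and 9.75 in siSCR cells. Both siBRG1 arrays at 48 h were above all siBRM and siSCR arrays of that time. There Fosl2 was higher than in siSCR cells by 0.71 ± 0.51 in log2, with 0.77 and 0.66 in the replicates, and the standard error was 0.27 when the BeadChip entered the model as a block. At 18 h the replicates did not share a sign with siBRG1 (-0.03 and 0.76) or with siBRM (-0.14 and 0.03).

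Among the Jun family, Jun encodes c-Jun, the strongest activator of its family and a known brake on myogenic factors. At 18 h Jun read 9.86 and 9.12 in siBRG1 cells, 10.01 and 8.81 in siBRM cells, and 10.68 and 9.59 in siSCR cells. Its 48 h readings were 10.01 and 9.37 in siBRG1 cells, 10.11 and 9.89 in siBRM cells, and 10.40 and 9.85 in siSCR cells. Within each replicate the siSCR array was the highest of its set at 18 h, although the groups overlapped because replicate 1 read higher throughout. Jun at 18 h differed from siSCR by -0.72 ± 0.58 with siBRM, with -0.67 and -0.78 in the replicates, and by -0.64 ± 0.58 with siBRG1, with -0.81 and -0.47. A BeadChip block brought each standard error to 0.25. At 48 h the siBRG1 differences were -0.39 and -0.48 and the siBRM differences -0.29 and 0.04.

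Junb encodes a Jun protein that can oppose c-Jun at AP-1 sites. At 18 h Junb read 11.39 and 10.15 in siBRG1 cells, 11.42 and 10.36 in siBRM cells, and 11.92 and 10.33 in siSCR cells. The 48 h values of Junb were 12.26 and 11.20 in siBRG1 cells, 11.64 and 11.005 in siBRM cells, and 11.51 and 10.98 in siSCR cells. In both replicates the siBRG1 array was the lowest of its set at 18 h and the highest at 48 h. Against siSCR the siBRG1 differences were -0.52 and -0.18 at 18 h and 0.75 and 0.22 at 48 h, and the siBRM differences lay between -0.50 and 0.12.

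Jund, which encodes the Jun protein found in resting cells, was the member of its family not detected on all arrays. It read 6.99 and 7.55 in siBRG1 cells, 8.18 and 7.84 in siBRM cells, and 8.46 and 7.58 in siSCR cells at 18 h. At 48 h it read 6.43 and 8.26 in siBRG1 cells, 8.52 and 8.25 in siBRM cells, and 7.92 and 8.32 in siSCR cells. The probe was not detected on either siBRG1 array of replicate 1, where Jund was lower than in siSCR cells by at least 2.15-fold (18 h) and at least 2.49-fold (48 h). Replicate 2 did not show such a deficit, with log2 differences of -0.03 and -0.05.

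Among the Egr genes, Egr1 encodes a zinc finger factor induced by serum response factor and MAPK signalling. At 18 h Egr1 read 12.32 and 13.43 in siBRG1 cells, 12.97 and 13.20 in siBRM cells, and 13.15 and 13.59 in siSCR cells. The 48 h values of Egr1 were 13.38 and 13.71 in siBRG1 cells, 13.13 and 13.90 in siBRM cells, and 13.87 and 12.49 in siSCR cells. All 6 group means of Egr1 lay within 0.67 of each other, and none of the neighbours in their order differed by more than the residual SD of 0.58. At 48 h the siSCR array was the highest of its set in replicate 1 and the lowest in replicate 2, so the siBRG1 differences were -0.50 and 1.23 and the siBRM differences -0.74 and 1.41.

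Egr2 encodes Krox-20, best known for its role in Schwann cell myelination and hindbrain patterning. At 18 h Egr2 read 9.55 and 9.93 in siBRG1 cells, 8.87 and 8.84 in siBRM cells, and 9.40 and 8.86 in siSCR cells. At 48 h it read 9.87 and 10.18 in siBRG1 cells, 8.92 and 8.79 in siBRM cells, and 8.72 and 7.50 in siSCR cells. The siBRG1 arrays stood above all siBRM and siSCR arrays at each time, with no overlap. At 48 h Egr2 was higher with siBRG1 than with siSCR by 1.92 ± 0.48, a 3.77-fold difference, with 1.15 and 2.68 in the replicates. The larger value came from the replicate whose siSCR array held the lowest Egr2 reading of the 12. Without that array the difference was 1.31, and over all omissions of 1 array it ran from 1.26 to 2.57. Against siBRM at 48 h it was higher by 1.17 ± 0.48, with 0.96 and 1.39. At 18 h the siBRG1 differences from siSCR were 0.15 and 1.07, and from siBRM 0.68 and 1.09. In order of level, both siBRG1 groups came first and differed from each other by 0.28, less than the residual SD of 0.41. The siSCR group at 48 h came last, 0.74 below its neighbour.

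Atf3 encodes a bZIP protein of the ATF/CREB family that pairs with Jun and is induced by cell stress. At 18 h its probe was detected on no array, with readings from 5.21 to 6.29. At 48 h Atf3 read 7.61 and 7.52 in siBRG1 cells, 5.47 and 5.97 in siBRM cells, and 5.31 and 8.26 in siSCR cells. It was detected on both siBRG1 arrays, on the siSCR array of replicate 2 and on no siBRM array, so the siSCR arrays lay on either side of the siBRG1 arrays. At 48 h Atf3 was at least 2.11-fold higher with siBRG1 than with siBRM, at least 1.82-fold in replicate 1 and 2.45-fold in replicate 2. In siBRG1 cells it was at least 1.76-fold higher at 48 h than at 18 h, at least 1.19-fold in replicate 1 and 2.60-fold in replicate 2. Against siSCR at 48 h, Atf3 was at least 2.36-fold higher with siBRG1 in replicate 1, and the log2 difference was -0.74 in replicate 2.

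Myc encodes a transcription factor that promotes growth and the cell cycle. At 18 h Myc read 6.64 and 6.36 in siBRG1 cells, 6.24 and 5.81 in siBRM cells, and 6.37 and 6.68 in siSCR cells. The 48 h values of Myc were 7.51 and 6.38 in siBRG1 cells, 5.51 and 6.23 in siBRM cells, and 7.17 and 7.35 in siSCR cells. The probe was detected on 1 of 2 arrays in the siSCR and siBRG1 groups at 18 h and in the siBRM group at 48 h, on neither siBRM array at 18 h, and on both arrays of the remaining groups. At 48 h both siBRM arrays lay below both siSCR arrays. There Myc differed from siSCR by -1.39 ± 0.49 with siBRM, with -1.67 and -1.12 in the replicates. In replicate 1, where the siBRM array did not detect it, the deficit was at least 1.34-fold, and the fitted -1.39 uses that background reading. Over the other processing settings with all arrays kept, the fitted difference ran from -1.39 to -0.48. Against siBRM at 48 h, Myc was at least 1.69-fold higher with siBRG1 in replicate 1, and the log2 difference was 0.15 in replicate 2. The fitted difference of 1.08 uses the background reading of the siBRM array and rests on replicate 1.

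**Figure D2:**
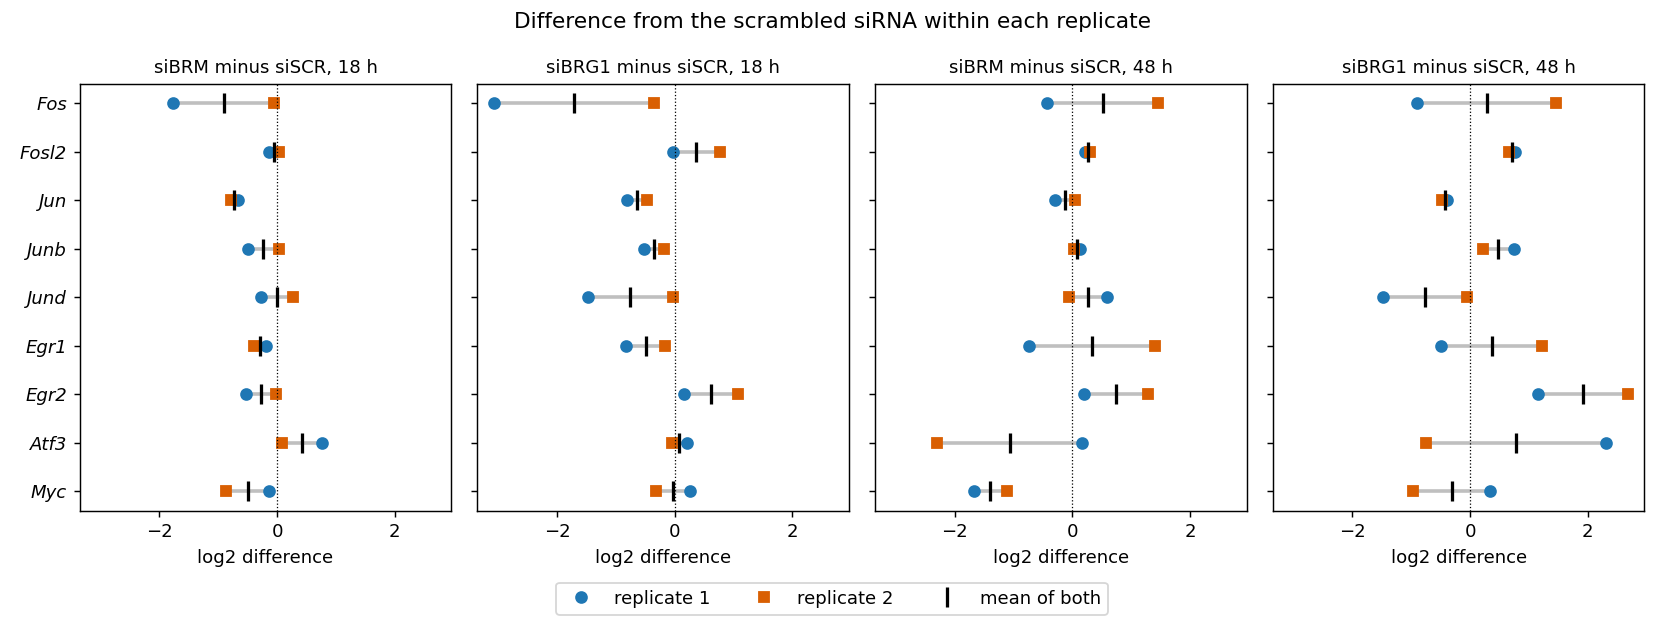
Log2 difference from siSCR (x axis) of each gene (y axis) with siBRM and siBRG1 at 18 h and 48 h; circles are replicate 1, squares replicate 2, and black bars their mean. The replicates lie on the same side of 0 for Jun at 18 h with both siRNAs, for Myc at 48 h with siBRM and for Egr2 and Fosl2 at 48 h with siBRG1, and on opposite sides for Fos and Egr1 at 48 h.

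None of the 9 genes passed the limma test (adjusted p under 0.05 over 20415 probes) in any comparison of siRNAs. For siBRM against siSCR at 18 h the count was 0 of 9, with 0% of all 10847 genes called and 0 members at an unadjusted p under 0.05 (0.313% of all genes). Jun was 1 member under that level with the BeadChip as a block, against 2.58%. Lower in both replicates were 5 members, Egr1, Egr2, Fos, Jun and Myc, against 26.4% of all genes, and 1 was higher in both, Atf3, which was detected on no array there, against 24%. Myc was not detected on either replicate 1 array or on the siBRM array of replicate 2. The median difference of the members was -0.27, and that of all genes was -0.01, and without the siSCR array of replicate 1 the members' median was -0.0038. It was -0.54 without the siSCR array of replicate 2, -0.52 without the siBRM array of replicate 1 and -0.13 without that of replicate 2.

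With siBRG1 against siSCR at 18 h, 0 of 9 members were called by limma (0% of all genes) and 0 had an unadjusted p under 0.05 (1.18%). With the BeadChip block 2 did, Fos and Jun, against 6.06% (adjusted p = 0.818 for each). Members lower in both replicates numbered 5, Egr1, Fos, Jun, Junb and Jund, against 29.7% of all genes, and Egr2 was higher in both, against 29.8%. Their median difference was -0.35, beside -0.00 for all genes. It rested on single arrays, since it was 0.11 without the siBRG1 array of replicate 2, -0.18 without that of replicate 1 and -0.098 without the siSCR array of replicate 1.

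For siBRM against siSCR at 48 h, 0 of 9 members were called by limma, as for 0% of all genes, and Myc alone had an unadjusted p under 0.05, without a block (0.157% of all genes; adjusted p = 0.99995) and with the BeadChip block (2.24%; adjusted p = 0.999). Egr2, Fosl2 and Junb were higher in both replicates, 3 members against 21% of all genes, and Myc was lower in both, against 16.5%. The median difference of the members was 0.26, beside 0.03 for all genes. When arrays were scaled to a common median instead of quantile normalized, the members' median was -0.16, beside -0.26 for all genes. Without the siSCR array of replicate 2 it was -0.19 and without the siBRM array of replicate 1 it was 0.13.

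For siBRG1 against siSCR at 48 h limma also called 0 of 9 members (0% of all genes), and Egr2 alone had an unadjusted p under 0.05 (2.01% of all genes; adjusted p = 0.99995). With the BeadChip block Egr2 (adjusted p = 0.217) and Fosl2 (adjusted p = 0.444) did, in a fit where 10.6% of all genes were under that level. Higher in both replicates were Egr2, Fosl2 and Junb, 3 members against 30% of all genes. Jun and Jund, 2 members, were lower in both, against 24.1%. The median difference was 0.37, beside 0.04 for all genes. Under median scaling these were 0.13 and -0.18. The members' median turned to -0.23 without the siSCR array of replicate 2, and was 0.75 without that of replicate 1 and 0.23 without the siBRG1 array of replicate 1. These siBRG1 and siBRM comparisons share the siSCR arrays of their time, so their values are not independent.

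**Figure D3:**
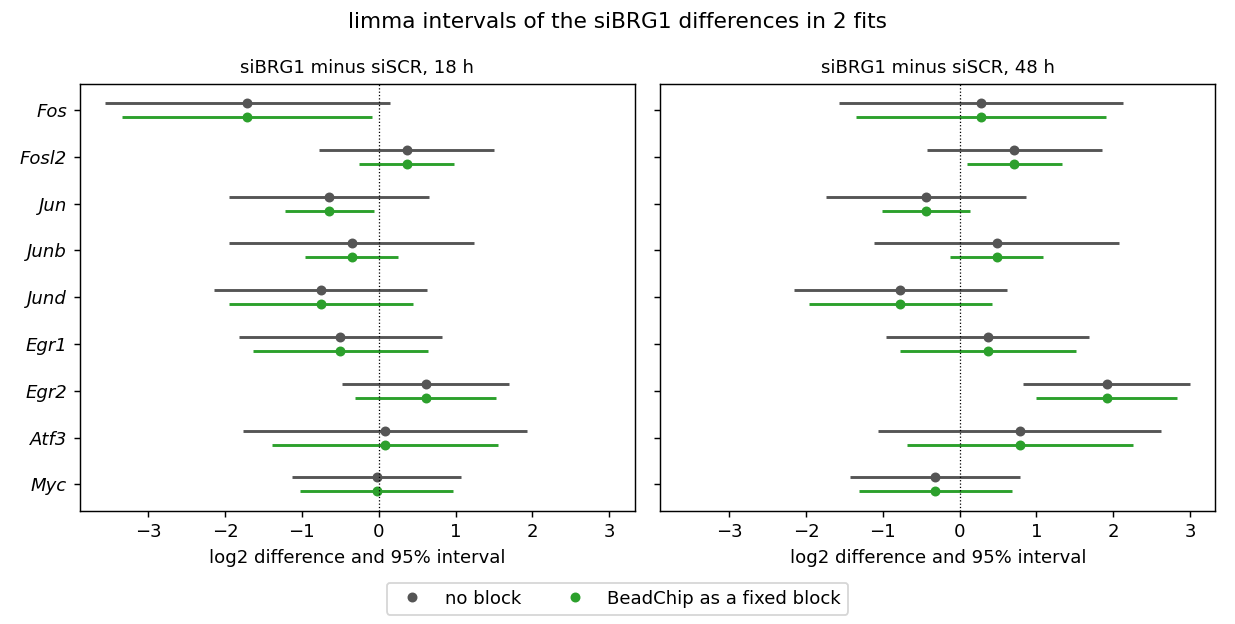
Log2 difference of siBRG1 from siSCR with its 95% limma interval (x axis) for each gene (y axis) at 18 h and 48 h, without a block (grey) and with the BeadChip as a block (green). At 48 h the Egr2 interval starts at 0.83 without the block and ends at 2.83 with it, above 0 in both, and the intervals of Jun, Junb and Fosl2 narrow the most.

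Direct comparison of siBRG1 with siBRM left 0 of 9 members called by limma at either time (0% of all genes at each). At 18 h none had an unadjusted p under 0.05, without the BeadChip block (1.36% of all genes) or with it (6.79%). At 48 h Atf3 and Egr2 did without the block (1.89%), and Myc as well with it (8.09%), where the adjusted p was 0.515 for Atf3, 0.505 for Egr2 and 0.617 for Myc. Atf3 would not have passed the detection filter without the siBRG1 arrays of that time, so its p-value is not support for a difference. At 48 h 5 members were higher in both replicates, Atf3, Egr2, Fosl2, Junb and Myc, against 31% of all genes. The direction of Atf3 in this count is likewise not support. Jun was lower in both, against 28.7%. At 18 h Egr2, Fosl2 and Myc were higher in both, 3 members against 28.4%, and Atf3, Fos, Junb and Jund were lower in both, 4 members against 26.3%. Atf3 was detected on none of these 18 h arrays, and Myc on neither of replicate 1, so those directions are between readings at background; in replicate 2 Myc was detected with siBRG1 alone.

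Between the times, 48 h values were set against 18 h values within each siRNA. In siBRM cells limma called 0 of 9 members, where 0.461% of all genes were called, and 0 members had an unadjusted p under 0.05 (4.76%). In siBRG1 cells it was 0 of 9, against 0.101%, with Atf3 alone at that unadjusted level (3.36%), by a fitted 2.10 ± 0.82 (adjusted p = 0.99996). Atf3 passed the detection filter only through 48 h arrays, both siBRG1 arrays among them, so its p-values between the times are not support for a rise. The fitted 2.10 uses 18 h readings that were not detected, where the bound is at least 1.76-fold. In siSCR cells the count was 0 of 9, against 0.323% of all genes, with 0 members at that level (5.39%). With the BeadChip block 0 members were called in each, against 1.5%, 0.479% and 1.65% of all genes in siBRM, siBRG1 and siSCR cells. Under the unadjusted level in that fit were Jun and Junb in siBRM cells (14.6%), Atf3 and Junb in siBRG1 cells (11%) and Atf3 and Egr2 in siSCR cells (17.2%).

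In siBRG1 cells 8 of 9 members were higher at 48 h in both replicates, all but Jund, against 31% of all genes, and 0 were lower in both (33.9%). Of the 8, Atf3 was not detected at 18 h and passed the detection filter only through 48 h arrays, so its direction is not support for a rise. Atf3 also enters the member medians between the times. The others of the 8 were Egr1, Egr2, Fos, Fosl2, Jun, Junb and Myc, and Fos and Myc were not detected at 18 h in replicate 1. The bounds of Atf3, Fos and Myc in replicate 1 were at least 1.19-fold, 2.23-fold and 1.11-fold. In siBRM cells 5 were higher in both, Egr1, Fosl2, Jun, Junb and Jund, against 29.1%, and 0 lower in both (31.7%). In siSCR cells only Myc was higher in both (25.3%), and Egr2 and Fos, 2 members, were lower in both (31.9%). Myc was not detected on the 18 h siSCR array of replicate 1, where its rise was at least 1.12-fold. Member medians were 0.37 with siBRM, 0.47 with siBRG1 and 0.10 with siSCR, beside -0.02, -0.02 and -0.06 for all genes. With 1 array of the cells left out, the median ran from -0.021 to 0.50 with siBRM, lowest without the 18 h array of replicate 2, and from 0.36 to 0.68 with siBRG1. With siSCR it ran from -0.43 without the 18 h array of replicate 2 to 0.54 without that of replicate 1, and was 0.27 without the 48 h array of replicate 2 and -0.14 without that of replicate 1. Under median scaling it was 0.54 with siSCR, beside 0.27 for all genes. Whether the medians differed between siRNAs was not tested. Junb was higher at 48 h in siBRG1 cells by 0.87 and 1.05 in the replicates, and Egr2 in siSCR cells differed at 48 h by -0.68 and -1.36.

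**Figure D4:**
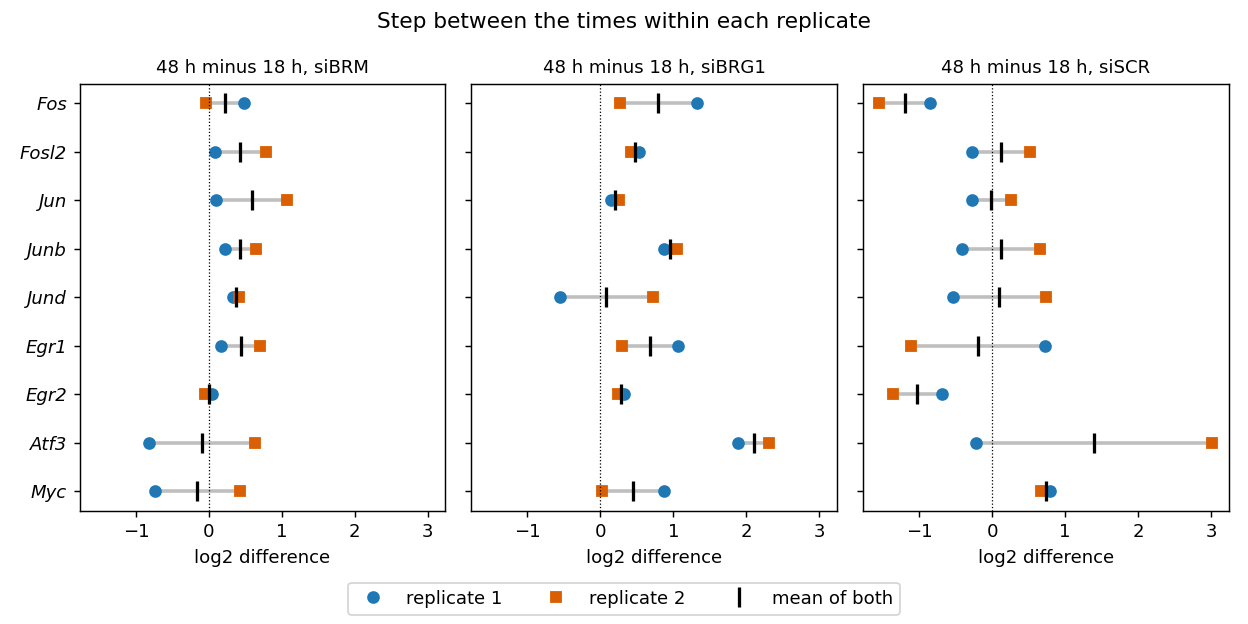
Log2 difference of 48 h from 18 h (x axis) for each gene (y axis) in siBRM, siBRG1 and siSCR cells; circles are replicate 1, squares replicate 2, and black bars their mean. In siBRG1 cells both replicates lie above 0 for all genes but Jund, and in siSCR cells both lie below 0 for Fos and Egr2.

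With the BeadChip as a block the step shared by all siRNAs comes from replicate 2, whose arrays share 1 BeadChip. The departure of each siRNA from that step is averaged over both replicates. A step fitted with the block thus also uses the arrays of the other siRNAs, and it can lie outside both replicate values. In that fit Junb in siBRG1 cells was higher at 48 h by 1.24 ± 0.30 (adjusted p = 0.224), and Junb and Jun in siBRM cells by 0.71 ± 0.30 (adjusted p = 0.365) and 0.86 ± 0.29 (adjusted p = 0.260). Egr2 in siSCR cells differed by -1.17 ± 0.45 (adjusted p = 0.274). Over omissions of 1 array, with or without the block, the Junb step in siBRG1 cells ran from 0.34 to 1.58. In the fit without a block, where the offset between replicates enters, the Jun and Junb steps in siBRM cells turned to -0.0087 and -0.097 without the 18 h siBRM array of replicate 2.

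Whether an siRNA effect differed between the times was tested as an interaction. Limma called 0 of 9 members for siBRM and 0 of 9 for siBRG1 (0% of all genes in each), with 0 members at an unadjusted p under 0.05 in either (0.203% and 0.562%). With the BeadChip block 0 members were under that level for siBRM (2.34%) and Egr2 alone for siBRG1 (4.4%), where its effect was larger at 48 h than at 18 h by 1.31 ± 0.56 (adjusted p = 0.918). In the replicates this difference of effects was 1.01 and 1.61 for Egr2 and 2.17 and 1.81 for Fos. The siSCR steps enter both, since Egr2 and Fos read lower at 48 h than at 18 h in siSCR cells of both replicates.

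One group touched several of these results. The siSCR arrays at 48 h differed from each other by 1.22 to 2.96 in Fos, Egr1, Egr2 and Atf3, and the deviations of that group from its mean correlated with those of other groups at r from 0.449 to 0.631, against 0.756 to 0.825 among the other groups. In replicate 2 the step from 18 h to 48 h in siSCR cells was -1.54 for Fos, -1.10 for Egr1 and -1.36 for Egr2, and Atf3, not detected at 18 h, was at least 4.37-fold higher at 48 h, while the stress genes Ddit3, Trib3 and Ppp1r15a, chosen here after their values were seen, stepped by 3.31, 4.43 and 3.10. In replicate 1 the same 3 genes stepped by -0.37, 0.06 and 0.28, and Atf3 was not detected at either time. Their part in the differences from siSCR at 48 h was not tested.

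Genes that act beside the members were counted from lists, of which no gene was called by limma in a comparison of siRNAs, with or without the BeadChip block (0% of all genes in each). Of 36 other immediate early genes, 28 were tested, and with siBRG1 at 48 h 14 were higher than in siSCR cells in both replicates and 6 lower, beside 30% and 24.1% of all genes. Ccn2, a matricellular protein gene driven by YAP and serum response factor, had the smallest unadjusted p of that list (2.92 ± 0.84, with 2.34 and 3.49 in the replicates, adjusted p = 0.99995). The list's median there was 0.17, beside 0.04 for all genes, and under median scaling it was -0.09, beside -0.18 for all genes. Arc, a neuronal immediate early gene, was detected on 3 arrays and differed with siBRM at 18 h by 1.31 and 0.77.

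Upstream, 26 of 36 genes of MAPK signalling, serum response factor and feedback were tested, and with siBRG1 at 48 h 4 were higher and 8 lower in both replicates, beside 30% and 24.1% of all genes. Creb1, a cAMP-responsive activator of Fos, and Mrtfa, a coactivator of serum response factor, differed with siBRM at 48 h by -1.75 and -1.15 and by -1.51 and -0.74. Creb1 was not detected on the siBRM array of replicate 1 there, and Mrtfa was detected on 5 arrays. Of 20 bZIP partners of AP-1, 14 were tested, and in siBRG1 cells 12 were higher at 48 h than at 18 h in both replicates and 0 lower (31% and 33.9% of all genes), with a median of 0.50, beside -0.02 for all genes. Against siSCR at 48 h, 3 of the 14 were higher and 3 lower in both replicates (30% and 24.1%), among them Mafg with 0.16 and 0.82 and Atf7 with -1.11 and -0.40.

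AP-1 target genes were tested in 18 of 20 cases. With siBRG1 at 48 h 10 were higher than in siSCR cells in both replicates and 2 lower (30% and 24.1% of all genes), with a median of 0.41, beside 0.04 for all genes. Under median scaling these were 0.15 and -0.18. Nqo1, a quinone reductase, was higher by 1.21 and 1.56 and Gja1, the gap junction protein connexin 43, by 0.37 and 1.90. Between the times in siSCR cells 2 targets were higher and 12 lower at 48 h in both replicates (25.3% and 31.9%), with a median of -0.76. In siBRM cells 2 were higher and 12 lower (29.1% and 31.7%), with a median of -0.62. The siBRG1 cells had 4 higher and 10 lower (31% and 33.9%), with a median of -0.22. Under median scaling the medians in siSCR, siBRM and siBRG1 cells were -0.35, -0.51 and 0.03. Nqo1 was called in siSCR cells with the BeadChip block (-2.32, adjusted p = 0.0250). It was also called with that block in siBRM cells (-2.78, adjusted p = 0.0104). With the block, limma called Nqo1 in siSCR and siBRM cells under median scaling (adjusted p = 0.00293 and 0.000335). The authors' values with the block gave adjusted p = 0.00247 and 0.000718. With 1 of the 12 arrays left out in turn, limma called Nqo1 in 10 fits of siBRM cells and 3 of siSCR cells.

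Beside Myc, 11 of 13 genes of its partners and antagonists were tested, and with siBRM at 48 h 3 were higher and 1 lower than in siSCR cells in both replicates (21% and 16.5% of all genes). Mycl, a Myc family member, and Mxd3, a Max partner that opposes Myc, differed with siBRG1 at 18 h by -0.60 and -1.06 and by 0.91 and 0.24. Of 28 Myc targets, 24 were tested. With siBRM at 48 h 2 of these were higher and 6 lower in both replicates, beside 21% and 16.5% of all genes, with a median of -0.14, beside 0.03 for all genes. The siBRG1 comparison with siSCR at 48 h gave a like shift, with 4 higher and 8 lower (30% and 24.1% of all genes) and a median of -0.16, beside 0.04. Srm, the spermidine synthase gene, differed with siBRM at 48 h by -0.70 and -0.66, and Ccnd2, a D-type cyclin gene, was higher with siBRG1 at 48 h by 1.77 and 0.52.

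Beside Atf3, 12 of 13 genes of the integrated stress response were tested. In siBRG1 cells 12 of 12 were higher at 48 h than at 18 h in both replicates, in siBRM cells 11 and in siSCR cells 7 (31%, 29.1% and 25.3% of all genes), with medians of 1.68, 1.37 and 1.16, and none was called by limma without the block. With the BeadChip block Herpud1, an endoplasmic reticulum stress gene, was called in siSCR cells (1.68, adjusted p = 0.0429) and Chac1, a glutathione-degrading enzyme gene, in siBRM cells (3.59, adjusted p = 0.0459). In that block fit limma called Herpud1 and Chac1 there under median scaling too (adjusted p = 0.0104 and 0.00893). The authors' values with the block gave adjusted p = 0.00300 and 0.00802. With 1 array left out in turn they were called in 3 and 2 of 12 fits. Trib3, a pseudokinase gene induced by Atf4, and Chac1 were higher with siBRG1 than with siSCR at 48 h by 4.55 and 2.21 in replicate 1, and by 0.44 and 0.19 in replicate 2.

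Muscle genes were measured beside the members. Acta1, skeletal muscle actin, was called in each comparison of 48 h with 18 h, by 4.03 ± 0.43 in siBRM cells (adjusted p = 0.0139), 4.07 ± 0.43 in siBRG1 cells (adjusted p = 0.0231) and 3.47 ± 0.43 in siSCR cells (adjusted p = 0.0210). In the same order, limma also called it with the BeadChip block (adjusted p = 0.00478, 0.0122 and 0.00946). With the authors' normalized values and no block it was called too (3.93, 3.94 and 3.40, adjusted p = 0.00181, 0.00179 and 0.00460). Under median scaling limma called it in none (4.35, 4.42 and 4.02, adjusted p = 0.308, 0.646 and 0.389), and with 1 array left out in turn it was called in 8, 6 and 6 of 12 fits, at log2 differences of 3.11 or more. Of 8 tested myoblast and myotube markers, 8 were lower with siBRG1 than with siSCR at 48 h in both replicates and 7 at 18 h (24.1% and 29.7% of all genes), with medians of -0.98 and -0.82. At 48 h these shifts stood beside the siBRG1 differences of Egr2 and Fosl2, whereas at 18 h the Fosl2 replicates did not share a sign. The part of the muscle genes in those differences was not tested. Of 14 markers of other cell types, 10 were detected on no array, among them Pecam1, Ptprc and Epcam, and Krt8 was detected on 6 and Dlk1 on 1. Kdr and Cdh1, detected on 5 and 3 arrays, differed with siBRM at 48 h by 1.89 and 0.38 and with siBRG1 at 48 h by 0.75 and -0.02. Of the housekeeping genes, Gusb differed with siBRG1 at 48 h by -0.01 and 0.58 and Hprt with siBRM at 18 h by -0.07 and 0.65.

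The members did not vary as 1 block. After each replicate was centred, the closest pairs over the 12 arrays, with Atf3 left out for its 3 detected arrays, were Fos with Egr1 (r = 0.72), Fosl2 with Junb (0.69) and Fosl2 with Egr2 (0.57). The tested genes whose pattern was most like each member were Ice2 for Fos (r = 0.95), Fbxo31 for Fosl2 (0.88), Abi3 for Jun (0.88), Bbs7 for Junb (0.91), Il34 for Jund (0.90), Rabgap1 for Egr1 (0.92), Irf1 for Egr2 (0.95) and Zfp410 for Myc (0.96). Each r was picked as the highest over all tested genes, so a high value was favoured by the search, and whether it exceeds chance was not tested. Abi3 was detected on 2 arrays, and the other 7 on 8 to 12. These correlations describe 12 arrays that share BeadChips and 2 replicate sets, and Atf3 was left out of this search too.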

How the data were processed

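RNA was measured on 12 arrays, 2 in each of 6 groups taken from the sample labels. The deposited intensities are bead-averaged signals per probe on a linear scale, made with GenomeStudio 2009.1 per the submitters' processing notes; anything done after that is not given in the sources used here. Deposited detection p-values, bead counts and bead standard errors came with them. A deposited table of intensities normalized by the authors served as an alternative.

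Background was estimated from the detection p-values with normexp in limma 3.58.1 (R 4.3.3, statmod 1.5.0; offset 16), followed by quantile normalization and log2. Of 45281 probes, 34885 had 1 gene symbol in the platform annotation, 18 several and 10378 none. The 20415 probes with a detection p under 0.05 on at least 2 arrays (10847 genes) were tested, and the brightest tested probe, by its mean, stood for its gene. Limma's two-sided moderated test used 6 group means with no block (6 residual degrees of freedom) and Benjamini-Hochberg adjustment over the tested probes. Under the replicate block check, deviations of same-numbered samples correlated in each of 15 pairs of groups (r between 0.449 and 0.825). All replicate 2 arrays lay on a different BeadChip from the replicate 1 arrays, so these correlations cannot tell pairing of the samples from a BeadChip effect. Fits with the BeadChip as a fixed block (4 degrees of freedom) are given beside the others. A run on simulated data checked only the mean size of fitted differences. It does not measure how many true differences would be called on these arrays. A bound ("at least") divides the brighter group's mean by the detection limit of the dim arrays, or by the dim signal where that is higher.

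Named were all members, Smarca2, Smarca4, called list genes or else the 2 with the smallest unadjusted p against siSCR, and the genes most like each member; others are marked. The members and lists were chosen with earlier results of these data known. Motifs were searched in RefSeq promoter sequences (GRCm38.p6). The number of arrays limits the precision.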

Additional observations from a re-analysis of the deposited data

Results flagged for a closer look

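Differences of effect whose replicates all moved one way in one kind of cell and the opposite way in the other were as follows, and limma did not call any of them (interaction test, adjusted p = 0.99997 for siBRM and 0.99993 for each with siBRG1). The siBRM difference of Egr2 from siSCR was 0.20 and 1.29 at 48 h, against -0.53 and -0.02 at 18 h, which gives 1.02 between the times. The step of Egr2 from 18 h to 48 h was 0.32 and 0.24 in siBRG1 cells, against -0.68 and -1.36 in siSCR cells, 1.31 between them. For Fos the step was 1.32 and 0.27 in siBRG1 cells, against -0.85 and -1.54 in siSCR cells, 1.99 between them. Fos was not detected on the siBRG1 array of replicate 1 at 18 h, so 1.32 is against background, where the bound is at least 2.23-fold, and 1.99 was computed with that reading. The siBRG1 difference of Junb from siSCR was 0.75 and 0.22 at 48 h, against -0.52 and -0.18 at 18 h, 0.83 between the times.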

How the results depend on the processing

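Of 11 comparisons, the count of members called stayed at 0 under each alternative but the following. Median scaling with the BeadChip block, chosen after the data were seen, called 1 member between the times in siSCR cells (Atf3, 2.79, adjusted p = 0.0220) and 1 in siBRG1 cells (Atf3, 2.92, adjusted p = 0.0381). The authors' normalized values with that block, chosen likewise, called 1 with siBRG1 against siSCR at 48 h (Egr2, 1.33, adjusted p = 0.0486) and 1 between the times in siBRG1 cells (Junb, 1.11, adjusted p = 0.0496). Without siSCR replicate 1 at 48 h, the same block called 1 between the times in siSCR cells (Atf3, 3.17, adjusted p = 0.0137), where omissions of 1 array gave 0 to 1. Atf3 passed the detection filter through 48 h arrays alone, so its calls between the times are not support for a rise. The causes were not tested. The lone array of a group was assumed to vary like the other groups.

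Of 16 differences with an unadjusted p under 0.05 in the fit with the BeadChip block (5 of them also without it), none changed sign under the other alternatives, and 3 between the times did when 1 array was left out of the fit without a block (ranges over omissions with and without the BeadChip block, those with it chosen after the data were seen): Atf3 in siSCR cells (-0.079 to 3.17), Jun in siBRM cells (-0.0087 to 1.19) and Junb in siBRM cells (-0.097 to 0.96). The stricter filter (detection p under 0.01 on at least 6 arrays) left 11 of the 16 testable.

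For 48 h against 18 h in siBRM, siBRG1 and siSCR cells, called probes over the whole array numbered 65, 11 and 43 without a block, 0 in each with median scaling, 242, 79 and 264 with the BeadChip block, 402, 133 and 429 with the replicate block and 405, 165 and 449 with the BeadChip as a random block. The last called 16 for siBRG1 against siSCR and 39 against siBRM at 48 h, with no member among them. Median scaling with the BeadChip block called 1673, 327 and 1302, and 467, 3 and 103 for siBRG1 against siSCR at 48 h and against siBRM at 18 h and 48 h. The authors' values with that block called 580, 187 and 811, and 111, 1 and 123. Omission of 1 array without a block gave 0 to 61, 0 to 11 and 0 to 32. Median scaling moved the median of all probes by -0.28 (siBRM) and -0.20 (siBRG1) against siSCR at 48 h and by 0.28 between the times in siSCR cells and 0.13 in siBRG1 cells, by -0.11 for siBRG1 against siBRM at 18 h, and by -0.35 and -0.17 in the interactions of siBRM and siBRG1. It turned the sign of 14 of 99 member differences, none of which had an unadjusted p under 0.05. Background limits Atf3, Myc, Fos and Jund, whose probes were not detected on some arrays.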
